A study of Homo sapiens with 3 samples.

Results

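The genes described here are 49 genes of DNA replication and S phase, taken as a list of gene symbols. They were found on the bead array by the platform's annotation (CDC45 under its older symbol CDC45L). They were read by 72 probes, out of 20045 named genes on the platform. The list was chosen with earlier results of these data known, so its counts and medians beside all genes are descriptions only. Gene expression was measured once each in 3 cultures of the established cell line MDA-MB-231, grown from a human triple-negative breast tumour and mesenchymal-like in its gene expression. The FBP1 sample received a vector expressing FBP1, the empty vector sample received a vector named as empty and the wt sample was a control whose handling the labels do not describe. All were kept at 37 °C with 5% CO2 in medium with 10% serum, and each was read on 1 array. FBP1 encodes fructose-1,6-bisphosphatase 1, which acts against the phosphofructokinase step of glycolysis. The time between transfection and harvest, the promoter of the vector and the share of cells transfected are not stated by the labels. With 1 array per group no difference has a replicate check and no p-value is given for any comparison.

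DNA replication is prepared in G1, when the origin recognition complex, CDC6 and CDT1 load the MCM2 to MCM7 ring onto chromatin. This step is called licensing. At the start of S phase CDC45 and the GINS complex join the ring and turn it into the working helicase, and polymerases, the sliding clamp PCNA and its loaders then copy both strands with deoxynucleotides made by enzymes such as ribonucleotide reductase. Many of these genes are transcribed under E2F factors late in G1, so their RNA is widely used as a sign of cycling cells. In bulk RNA, fewer cells in S phase and less RNA of these genes per cell cannot be told apart.

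The arrays were alike in the share of probes detected, but some genes were detected against what is known of this line. At a detection p-value under 0.01, between 41.8% and 42.0% of probes were detected on each array, and the median signals lay between 91.7 and 94.6 intensity units. FBP1 itself had signals of 1063.5 in the FBP1 sample, 678.6 in the empty vector sample and 530.8 in the wt sample, 1.79-fold and 2.44-fold higher in the FBP1 sample than in the empty vector and wt samples. CDKN2A and MTAP, neighbouring genes that this line is known to have lost and that were looked up after other values were seen, were both detected in the FBP1 sample and in neither control. The CDKN2A probe that was brightest gave signals of 120.6 in the FBP1 sample, 88.9 in the empty vector sample and 89.0 in the wt sample, and MTAP gave 107.5, 97.7 and 85.1 on the same arrays. A second CDKN2A probe was also detected in the FBP1 sample alone, at 105.2 against 82.5 in the empty vector sample and 87.9 in the wt sample. The third CDKN2A probe was detected on no array. CDKN2B, of the same locus, was detected in the empty vector sample alone, at 113.5 against 89.4 in the FBP1 sample and 99.5 in the wt sample. The signals are dim and the probes do not give 1 answer, so whether the FBP1 sample goes against its label as a culture of this line is not settled, and every difference from it below includes that sample. The estimated background also varied less on the FBP1 array (standard deviation 4.186) than on the empty vector and wt arrays (12.79 and 16.17). Whether this bears on genes detected in the FBP1 sample alone was not tested. Of 15 markers of luminal breast cells, 10, 9 and 8 were detected on the FBP1, empty vector and wt arrays. Signals summed over all 15, undetected ones included, were 7032, 6301 and 5824. FOXA1, a luminal transcription factor gene, and CDH1, which encodes E-cadherin, were detected in the FBP1 sample alone, while ESR1, PGR, GATA3 and TFF1 were detected on no array. Of 12 markers of mesenchymal-like breast lines, 11 were detected on each array (SPARC was not), with summed signals of 47894, 57573 and 55861. Whether these differences had a part in the results below was not tested.

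As a group, the replication genes were lower in the FBP1 sample than in either control. Of the 49 members, 47 were detected, all of them on all 3 arrays; GINS1, a subunit of the helicase, and CCNE2, a cyclin of S phase entry, were detected on none, with signals of 92.9 and 77.9 in the FBP1 sample, 93.4 and 86.7 in the empty vector sample and 92.0 and 82.6 in the wt sample. After normalisation, 44 of the 47 detected members were lowest in the FBP1 sample (93.6%), against 38.1% of all 12895 genes detected. The median difference of the members was -0.44 (log2) against the empty vector sample and -0.49 against the wt sample, where all detected genes had medians of -0.01 and 0.00. Between the controls, empty vector minus wt, the members had a median of -0.06 and all genes 0.01. The comparisons of the FBP1 sample with each control share the FBP1 sample and are not independent of each other. Where a pair of log2 differences is given for a gene or group, the first is FBP1 minus empty vector and the second FBP1 minus wt.

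At a threshold of 1.5-fold, 15 of the 47 detected members were lower in the FBP1 sample than in the empty vector sample, where 6.05% of all detected genes were that much lower. Against the wt sample 17 were lower, with 8.0% of all genes, and 10 were lower than both controls, with 3.06% of all genes. No member was 1.5-fold higher in the FBP1 sample than in either control, where 6.76% of all genes were higher than in the empty vector sample and 8.96% higher than in the wt sample. At 2-fold, 2 members were lower than in the empty vector sample (0.975% of all genes) and 2 lower than in the wt sample (1.46%), but none was 2-fold below both controls (0.396%). None was 2-fold higher than in the empty vector sample (1.31% of all genes), than in the wt sample (1.96%) or than in both (0.651%), and none 1.5-fold above both (4.02%). Between the controls 1 member, GINS4, was 1.5-fold higher in the empty vector sample (3.99% of all genes) and none was lower (3.35%). At 2-fold no member differed between the controls in either direction, where 0.502% of all genes were higher and 0.559% lower in the empty vector sample. With median scaling in place of quantile normalisation, the median of all genes moved to 0.21 and 0.29 against the empty vector and wt arrays, and 83.0% and 90.6% of the genes past 1.5-fold were then upward, against 52.8% in both comparisons before. The members' medians relative to all genes were -0.43 and -0.49 under that scaling, though only 8 and 4 members were then 1.5-fold lower in absolute terms, and 7 and 11 members changed sign.

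**Figure D1:**
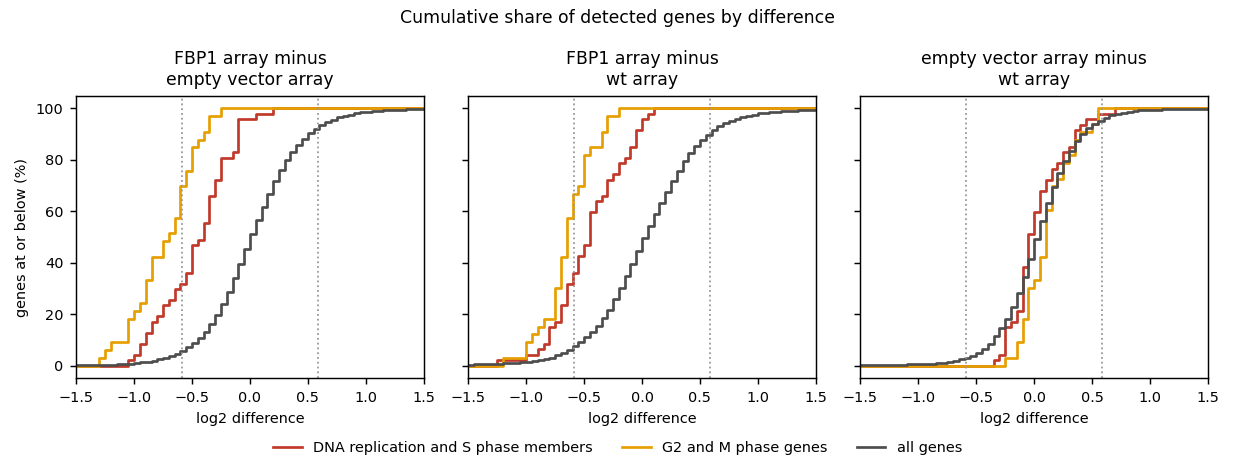
Cumulative share of detected genes (vertical axis, %) at or below each log2 difference (horizontal axis) for the 47 detected replication members, 33 G2 and M phase genes and all detected genes, in the 3 comparisons; dotted lines mark 1.5-fold. The curves of the members and of the G2 and M phase genes lie left of all genes in both comparisons with the FBP1 sample, and the members have a median of -0.06 between the controls.

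The 10 members at least 1.5-fold below both controls were RRM2, GINS2, EXO1, RFC3, TK1, CHAF1B, BLM, RRM1, MCM10 and GINS3, in order of the difference nearer to 0. They came from the helicase, the clamp loader, nucleotide supply, chromatin assembly and repair, and none from licensing, the polymerases or the single-strand binding proteins. The promoters of the lowest 3 are printed to show how differently the motifs of cell cycle promoters stand in them. They are RefSeq windows of 300 bases, 250 before the start site and 50 from it onward, on GRCh38.p14, written 5′ to 3′ on the gene's strand: RRM2 at chr2:10122489-10122788 on the plus strand, GINS2 at chr16:85688905-85689204 on the minus strand and EXO1 at chr1:241847954-241848253 on the plus strand. Capitals mark matches to the core of the E2F motif (TTNNCGC, with the letters N any pair of C and G, on either strand) and to CCAAT, the motif of the factor NF-Y (also on either strand).
RRM2: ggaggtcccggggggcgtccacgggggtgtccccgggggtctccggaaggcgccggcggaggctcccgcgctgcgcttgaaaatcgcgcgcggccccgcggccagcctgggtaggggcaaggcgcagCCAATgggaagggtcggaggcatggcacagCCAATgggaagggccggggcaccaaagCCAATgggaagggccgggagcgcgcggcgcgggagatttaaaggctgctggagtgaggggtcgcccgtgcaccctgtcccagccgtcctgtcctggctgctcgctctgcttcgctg
GINS2: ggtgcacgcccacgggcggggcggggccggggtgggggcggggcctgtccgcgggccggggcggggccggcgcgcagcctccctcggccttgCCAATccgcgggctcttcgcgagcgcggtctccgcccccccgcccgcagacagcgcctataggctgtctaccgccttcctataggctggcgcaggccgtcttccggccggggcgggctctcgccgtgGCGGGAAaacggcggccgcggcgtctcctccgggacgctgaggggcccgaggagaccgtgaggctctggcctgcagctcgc
EXO1: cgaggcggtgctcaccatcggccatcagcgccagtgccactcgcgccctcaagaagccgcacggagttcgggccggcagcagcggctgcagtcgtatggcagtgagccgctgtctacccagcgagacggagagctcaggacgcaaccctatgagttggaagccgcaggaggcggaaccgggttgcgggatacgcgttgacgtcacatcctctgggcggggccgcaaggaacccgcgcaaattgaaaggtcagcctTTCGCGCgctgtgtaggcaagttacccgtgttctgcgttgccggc

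The RRM2 window held 3 CCAAT boxes, whose first bases lay 123, 93 and 66 bases upstream of the start site, and no E2F core. The GINS2 window held 1 E2F core, read on the opposite strand 31 bases upstream, and 1 CCAAT box 158 bases upstream. The EXO1 window held 1 E2F core just downstream of the start site and no CCAAT box. Of the 49 members, 42 were matched in the promoter table, and the first window listed for each was searched. An E2F core stood in 33 of these 42 windows (78.6%), against 13.1% of the windows of all 27305 genes in the table and 19.7% of those of genes detected on the arrays. CCAAT stood in 25 of the 42 (59.5%), against 35.7% of all windows. The motifs can share letters, because CCAAT on the other strand reads ATTGG and can run into an E2F core that starts with TTGG, and they did so in 5 of the 42 windows. Within the members, the E2F core was found in 7 of the 10 windows of genes below both controls and in 26 of the other 32, and whether these shares differ was not tested. MCM6, with a difference of -0.35 against the empty vector sample, had the most cores, 4. A match is a description of these letters and does not show that a factor binds.

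**Figure D2:**
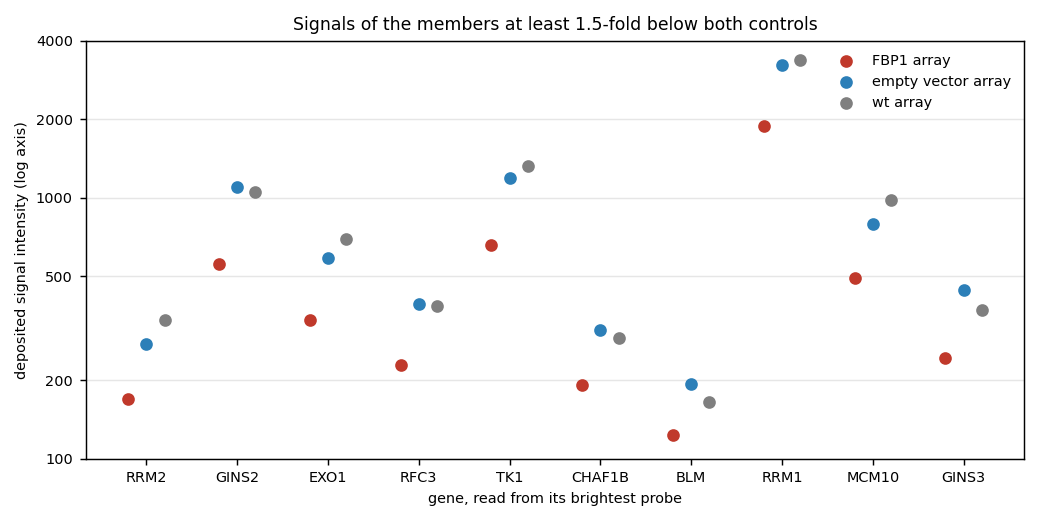
Deposited signal intensity (log axis) of the 10 members at least 1.5-fold below both controls, each read from its brightest probe, on the FBP1, empty vector and wt arrays (1 point per array, no error bars because there is 1 array per group). For each of the 10 genes the FBP1 sample is lowest; RRM1, for example, has 1878.9 on it against 3226.5 and 3366.7.

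Licensing genes gave mixed differences. ORC1, an ATP-binding subunit of the origin recognition complex, had signals of 108.4 in the FBP1 sample, 133.4 in the empty vector sample and 146.1 in the wt sample. Its differences were -0.53 and -0.83 against the empty vector and wt arrays. CDC6, the loader that brings the MCM ring to the origin, had signals of 108.8 in the FBP1 sample, 153.8 in the empty vector sample and 130.9 in the wt sample. It was 1.91-fold below the empty vector sample and 1.41-fold below the wt sample, and the controls themselves differed 1.35-fold. CDT1, the partner of CDC6 in loading, stood at -0.40 and -0.50. ORC6, the smallest subunit of the complex, was read by probes that disagreed. The brighter one gave 12328.4 in the FBP1 sample, 11072.4 in the empty vector sample and 11549.0 in the wt sample, slightly higher in the FBP1 sample, and the dimmer one gave 237.8, 346.6 and 293.6, lowest on it. Their differences were 0.19 and -0.59 against the empty vector sample and 0.07 and -0.24 against the wt sample. The direction of ORC6 is therefore not settled, and it was the 1 detected member with its highest signal in the FBP1 sample. The median over the 4 licensing genes was -0.46 and -0.50. CDC6 against the empty vector sample and ORC1 against the wt sample were 1.5-fold lower, and no gene was so in both. Each of these genes was read by 1 dim probe. With another background correction (normexp fitted to all probes) both fell inside 1.5-fold, CDC6 at -0.52 and ORC1 at -0.46 in these comparisons. The licensing medians were then -0.31 and -0.34.

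All 11 detected helicase genes were below both controls, except that MCM3 and MCM7 against both, and GINS4 against the wt sample, stood above with median scaling. The 6 subunits of the MCM ring were a little lower in the FBP1 sample, with a median of -0.28 against the empty vector sample and -0.39 against the wt sample and none 1.5-fold below both. MCM7 had signals of 4003.7 in the FBP1 sample, 4679.0 in the empty vector sample and 4476.1 in the wt sample, which gave differences of -0.12 and -0.03, and MCM3 stood at -0.18 and -0.20. MCM4 was the lowest of the 6 at -0.37 and -0.67, and its second probe gave -0.20 and -0.67. MCM2 (-0.27 and -0.46), MCM5 (-0.30 and -0.38) and MCM6 (-0.35 and -0.41) lay between. The 3 detected GINS genes, whose products complete the helicase, had medians of -0.98 (FBP1 minus empty vector) and -0.63 (FBP1 minus wt). GINS2 had signals of 557.6 in the FBP1 sample, 1097.7 in the empty vector sample and 1054.3 in the wt sample and was 1.95-fold and 1.79-fold lower. GINS3 had 243.3, 442.0 and 372.0 on the FBP1, empty vector and wt arrays and was 1.97-fold and 1.55-fold lower. GINS4, with 106.3, 153.5 and 120.9, was 2.02-fold below the empty vector sample but 1.26-fold below the wt sample, and the controls lay 1.60-fold apart. GINS4 was read by 1 dim probe. With normexp fitted to all probes its differences were -0.56 and -0.18, both inside 1.5-fold. MCM10, which helps the ring open and start, had signals of 493.0 in the FBP1 sample, 791.3 in the empty vector sample and 980.5 in the wt sample, 1.56-fold and 1.90-fold lower in the FBP1 sample. Its second probe gave -0.91 and -1.20. CDC45, the remaining helicase subunit, stood at -0.43 and -0.56. Of the 11, 4 were at least 1.5-fold lower in each comparison and 3 in both.

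Polymerase and primase genes held no member 1.5-fold below both controls. The median of the 6 was -0.32 against the empty vector sample and -0.26 against the wt sample, where it was 0.03 with median scaling. Of the 6, POLE2 alone was 1.5-fold below the wt sample. POLE, the catalytic subunit of the leading strand polymerase, had signals of 228.4 in the FBP1 sample, 259.6 in the empty vector sample and 247.4 in the wt sample, with differences of -0.12 and 0.01. Its accessory subunit gene POLE2 had a larger difference, with 485.3, 657.8 and 833.6 on the same arrays, -0.37 and -0.70. POLA1, the catalytic subunit that extends the RNA primer, had 377.2 in the FBP1 sample, 555.4 in the empty vector sample and 419.7 in the wt sample, so the empty vector sample stood apart from the others. A second POLA1 probe was detected in the FBP1 sample alone, at 100.2 against 93.2 in the empty vector sample and 91.0 in the wt sample. POLA2 (-0.14 and -0.21), the primase gene PRIM1 (-0.44 and -0.52) and POLD1, the catalytic subunit of the lagging strand polymerase (-0.27 and -0.31), were lower in the FBP1 sample by less than 1.5-fold.

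The clamp gene PCNA had signals of 1341.3 in the FBP1 sample, 1804.2 in the empty vector sample and 1844.9 in the wt sample, with differences of -0.32 and -0.30. A second detected PCNA probe gave -0.14 and 0.05. The clamp loader genes RFC2 to RFC5 had a median of -0.42 and -0.55, and DSCC1, a subunit of an alternative loader used in sister chromatid cohesion, stood at -0.46 and -0.56. Read from its brightest probe, RFC2 was nearest to 0 against the empty vector sample (-0.28, and -0.57 against the wt sample), with 198.7 in the FBP1 sample, 242.1 in the empty vector sample and 284.0 in the wt sample. Its second probe gave -0.67 and -0.25. RFC3 had 229.2 in the FBP1 sample, 390.0 in the empty vector sample and 383.2 in the wt sample and was 1.84-fold and 1.74-fold lower. A second RFC3 probe gave -0.68 and -0.86, and the other, dim at 101.5 in the FBP1 sample, 101.5 in the empty vector sample and 113.3 in the wt sample, gave 0.14 and -0.28. That probe is annotated to another RefSeq transcript than the brighter ones. RFC4 (-0.34 and -0.47) and RFC5 (-0.51 and -0.52) were lower by less than 1.5-fold, though the second RFC4 probe gave -0.54 and -0.72. A second RFC5 probe was near background, detected in the FBP1 sample alone, with signals of 89.3, 90.7 and 89.6 on the FBP1, empty vector and wt arrays.

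Among the genes of lagging strand processing and single-strand binding, RPA1 had the largest difference. RPA1, the large subunit of the protein that coats single-stranded DNA, had signals of 1553.5 in the FBP1 sample, 2353.4 in the empty vector sample and 2905.6 in the wt sample and was 1.42-fold and 1.71-fold lower. Its 3 probes gave between -0.60 and -0.50 against the empty vector sample and between -0.85 and -0.77 against the wt sample. The other subunits differed less, RPA2 at -0.36 and -0.33 and RPA3 at -0.13 and -0.08. FEN1, which cuts the flaps of Okazaki fragments, had 2193.1 in the FBP1 sample, 2578.2 in the empty vector sample and 2836.1 in the wt sample, -0.11 and -0.22. LIG1, which seals the fragments, stood at -0.41 and -0.08, with its wt level close to that of the FBP1 sample. The median of these 5 genes was -0.36 and -0.22, the second of which was 0.08 with median scaling.

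All 4 nucleotide supply genes were below both controls. The median of its 4 genes was -0.74 against the empty vector sample and -0.81 against the wt sample, and 3 of the 4 were 1.5-fold below both. RRM2, the small subunit of ribonucleotide reductase and the one whose level follows S phase, had signals of 169.6 in the FBP1 sample, 274.9 in the empty vector sample and 340.7 in the wt sample. It was 1.87-fold and 2.42-fold lower, the largest of all members against the wt sample. RRM1, the large subunit, had 1878.9, 3226.5 and 3366.7 on the FBP1, empty vector and wt arrays, with the controls 1.03-fold apart, and was 1.61-fold and 1.66-fold lower. TK1, the thymidine kinase of S phase, had 661.5 in the FBP1 sample, 1185.6 in the empty vector sample and 1327.5 in the wt sample, 1.73-fold and 1.86-fold lower. TYMS, which makes thymidylate, had 1346.6 in the FBP1 sample, 2139.2 in the empty vector sample and 2326.3 in the wt sample, and at 1.48-fold it lay just inside 1.5-fold against the empty vector sample and just outside it against the wt sample (1.55-fold).

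**Figure D3:**
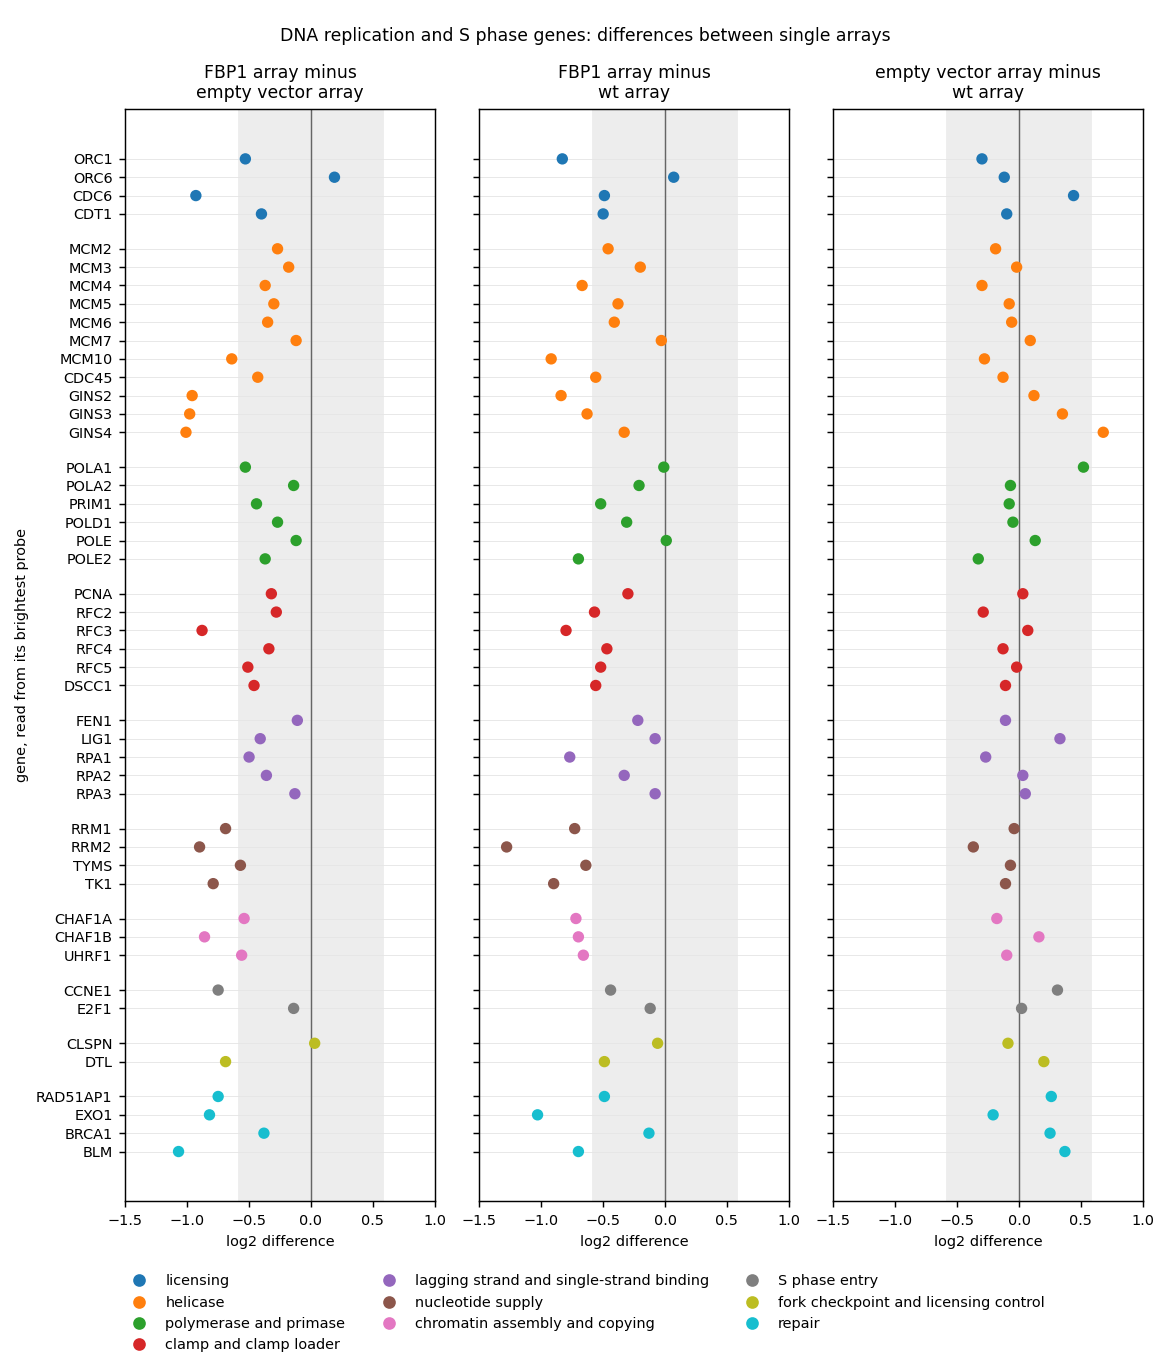
Log2 differences of the 47 detected members between single arrays (horizontal axes), by gene and coloured by role, for FBP1 minus empty vector, FBP1 minus wt and empty vector minus wt; the grey band holds differences under 1.5-fold, and there are no error bars because there is 1 array per group. All 4 nucleotide supply genes lie at -0.57 or lower against the empty vector sample and the 6 MCM ring genes between -0.37 and -0.12, and between the controls GINS4 alone lies outside the band.

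Chromatin genes of S phase were also lower. CHAF1A and CHAF1B encode subunits of the complex that places new histones behind the fork. CHAF1A had signals of 176.9 in the FBP1 sample, 240.1 in the empty vector sample and 266.2 in the wt sample, -0.54 and -0.72, and CHAF1B had 191.0, 310.2 and 289.3 on the same arrays, 1.81-fold and 1.62-fold lower. UHRF1, which brings the maintenance DNA methyltransferase to new DNA, stood at -0.56 and -0.66, and its second, dimmer probe at -0.51 and -0.23. All 3 were at least 1.5-fold below the wt sample and 1 was below both controls.

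The regulators of S phase entry and of the fork gave less even differences, and the median of the S phase entry genes against the wt sample was -0.28, or 0.06 with median scaling. CCNE1, the cyclin that drives S phase entry, had signals of 217.1 in the FBP1 sample, 340.8 in the empty vector sample and 294.3 in the wt sample and was 1.69-fold and 1.36-fold lower. E2F1, a transcription factor that drives many of these genes and is itself induced in G1, had 130.6, 144.9 and 142.3 on the FBP1, empty vector and wt arrays, with differences of -0.14 and -0.12. DTL, the adaptor of the ubiquitin ligase that removes CDT1 in S phase, had 191.4 in the FBP1 sample, 286.4 in the empty vector sample and 261.4 in the wt sample, 1.62-fold and 1.40-fold lower. CLSPN, the checkpoint adaptor claspin, was close to the detection limit on all arrays, at 95.6, 98.3 and 99.9, and no difference could be told from background at that signal.

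Repair genes that peak in S phase included the largest difference of all members against the empty vector sample. BLM, a helicase that resolves recombination intermediates, had signals of 123.3 in the FBP1 sample, 192.6 in the empty vector sample and 164.9 in the wt sample and was 2.11-fold and 1.63-fold lower. It was read by 1 dim probe, and over the other settings its difference nearer to 0 lay between -0.70 and -0.28. EXO1, a nuclease of mismatch repair and end resection, had 340.2, 588.0 and 694.2 on the FBP1, empty vector and wt arrays and was 1.77-fold and 2.04-fold lower. A second detected EXO1 probe gave -0.91 and -1.15. RAD51AP1, a DNA-binding factor of homologous recombination, had 416.4 in the FBP1 sample, 707.6 in the empty vector sample and 620.0 in the wt sample, -0.75 and -0.49. BRCA1, which acts in recombination repair, had 192.9, 246.0 and 220.9 on the FBP1, empty vector and wt arrays, -0.38 and -0.13, and its second probe gave -0.15 and -0.42. The median over these 4 genes was -0.79 and -0.60, and 2 of them were 1.5-fold below both controls.

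Probes of one gene mostly gave the same direction. Of 17 members with more than 1 detected probe, 13 had the same sign on all of them against the empty vector sample, and the exceptions were ORC6, POLA1, RFC3 and RFC5. In 3 of these 4 the probes were also at least 1.5-fold apart (ORC6, POLA1 and RFC3). The larger differences of MCM10, EXO1 and RPA1 were each seen on more than 1 probe.

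A wider list of 56 other replication and S phase genes was also lower in the FBP1 sample, with medians nearer to 0 than those of the members, except that its median against the wt sample was 0.03 with median scaling. Of 49 detected genes on it, 11 stood 1.5-fold or more below the empty vector sample and 1 above. Over all detected genes, 6.05% were that much lower and 6.76% higher in this comparison. Against the wt sample 9 were below and 1 above, where the shares of all detected genes were 8.0% and 8.96%. The medians of the wider list were -0.35 and -0.30. The lowest against the empty vector sample were TIPIN, which protects the fork (-0.99, and -1.18 against the wt sample), and CCNA2, the cyclin of S and G2 phase (-0.93 and -0.84). The highest were MCM8, a helicase of recombination that is no part of the replicative ring (0.72 and 0.75), and E2F7, a repressor of the E2F family (0.45 and 0.54). A separate list of 33 G2 and M phase genes was detected in full, and every gene on it was below both controls. Past 1.5-fold, 23 of these genes were lower against the empty vector sample and 22 against the wt sample. Over all detected genes, the shares that much lower were 6.05% and 8.0%. The medians of the G2 and M phase list were -0.72 and -0.67. In order of the difference from the empty vector sample, KIF20A, a kinesin of cytokinesis, stood lowest at -1.32 and -1.24, followed by the kinetochore gene CENPF at -1.25 and -0.73, and HMMR (-0.38 and -0.64) and ECT2 (-0.30 and -0.24) lay nearest to 0. Whether the replication members and the G2 and M phase genes differ in size was not tested, since there is 1 array per group.

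**Figure D4:**
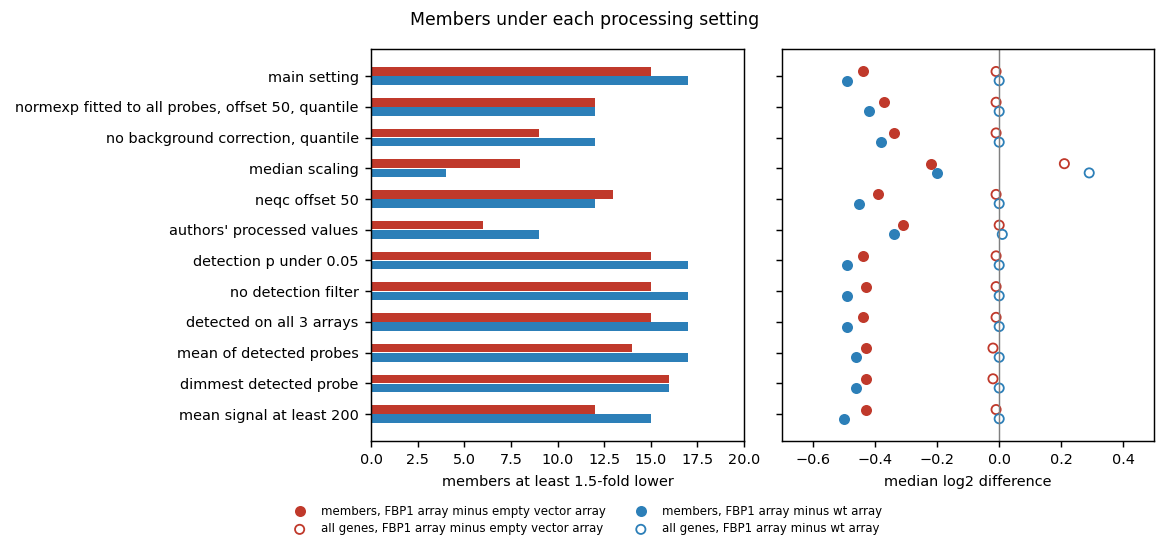
Members at least 1.5-fold lower in the FBP1 sample (left, count) and median log2 difference of the members and of all detected genes (right) under the main setting and 11 alternatives, against the empty vector and wt arrays. The members' count against the empty vector sample lies between 6 and 16, and the medians of the members lie below 0 and below those of all genes under each setting.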

How the data were processed

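Each probe's deposited intensity, with no background subtraction or scaling between arrays seen in the values, was used together with its detection p-value, named so per the file headers. A further deposited table gives processed intensity from the authors on a linear scale, made by a method not given in the sources used here. Of 48107 probes, 2 lacked a signal and were left out. The neqc function (limma 3.58.1, R 4.3.3, offset 16) estimated background from the detection p-values, corrected for it, applied quantile normalisation and gave log2 levels. Background was estimated with standard deviations of 4.186, 12.79 and 16.17 on the FBP1, empty vector and wt arrays, so differences of dim genes are the least certain. Probes were named through the platform annotation (30113 with 1 gene, 8 with several and not used, 17986 unnamed here), and symbols updated by gene ID from RefSeq. A gene was read from its brightest probe and was compared where a compared array detected it (p-value under 0.01). Values are differences between single arrays with no test, and the number of arrays limits their precision.

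The members, roles and lists were chosen with earlier results of these data known. Signals on all arrays are given for members 1.5-fold below both controls, the highest and lowest member of each role against the empty vector sample and members whose probes disagree; for other lists, the 2 highest and 2 lowest genes. Promoters are those of the 3 lowest members below both controls, outside chromosome 8. Other settings tried were normexp fitted to all probes, no background correction, median scaling, an offset of 50, the authors' processed values, other detection filters and other probe rules. The steps were tested on simulated arrays. In the simulation of the normalisation only brighter probes were changed, so it does not cover differences of dim genes. Python 3.11.15, numpy 2.4.6, pandas 2.3.3 and matplotlib 3.10.9 were used.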

Additional observations from a re-analysis of the deposited data

How the results depend on the processing

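The members' medians kept their direction in both comparisons with the FBP1 sample under 11 of 11 alternative settings. The other detection filters could hardly move these medians, because the detected members were detected on all arrays and kept their levels. Median scaling moved these medians to -0.22 against the empty vector sample and -0.20 against the wt sample, with 8 and 4 members 1.5-fold lower and 1 below both controls, because it moved the median of all genes. With no background correction, 9 members were 1.5-fold below the empty vector sample and 6 below both controls. With the values processed by the authors, 6 were below the empty vector sample, 9 below the wt sample and 4 below both. The 1 member higher in the empty vector sample than in the wt sample became 2 with median scaling and 0 with normexp, no background correction, an offset of 50, the authors' values or a mean signal of at least 200. The last setting and the dimmest detected probe were chosen after seeing the data. Of the 10 genes below both controls, GINS2, EXO1, RRM1, RRM2 and TK1 stayed so under 10 of 11 settings, MCM10 under 8, RFC3 under 7, GINS3 and CHAF1B under 6, and BLM under 5 of the 10 that gave it a value. The filters left the levels of these genes unchanged, as did the probe rules for genes with 1 probe, so those settings could not alter the call. GINS3, CHAF1B and BLM, with 1 probe each, were below both controls under none of the settings that changed the levels themselves.

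Members with small differences, and some medians, changed sign. Under at least 1 setting 11 members did so against the empty vector sample, 7 of them with median scaling, and 14 against the wt sample, 11 of them with median scaling. Among members past 1.5-fold in these comparisons, RFC3 against the empty vector sample did so, at 0.14 when read from its dimmest probe. With median scaling, median differences from the wt sample became 0.03 for polymerases, 0.08 for lagging strand genes, 0.06 for S phase entry, 0.03 for the wider replication list and 0.24 for mesenchymal-like line markers (0.04 against the empty vector sample). Between the controls, licensing became 0.01 with median scaling, 0.01 with the mean of probes and 0.12 with the dimmest probe, and chromatin genes 0.09 and 0.16 with the mean and the dimmest probe. No paired analysis was possible because each group has 1 array.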

Other observations

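Genes of cell cycle arrest, pocket proteins and p53 targets did not stand apart as a group beside the replication genes. Of 25 detected genes on this list, 2 stood 1.5-fold or more below the empty vector sample and 1 above, and the median was -0.06. Over all detected genes, 6.05% were that much lower and 6.76% higher in this comparison. Against the wt sample 1 of 24 was below and 2 above, with a median of 0.09. The shares of all detected genes there were 8.0% and 8.96%. CCNG2, an atypical cyclin of resting cells, had signals of 359.4 in the FBP1 sample, 277.5 in the empty vector sample and 217.6 in the wt sample, with differences of 0.63 and 1.15. ZMAT3, a p53 target, had 2827.2, 2144.7 and 2883.8 on the same arrays, with differences of 0.52 and 0.12. LIN37, a subunit of the DREAM complex that represses cell cycle genes in resting cells, stood at -0.74 and -0.43. CDKN2B, an inhibitor of CDK4 and CDK6 whose gene lies beside CDKN2A, was detected in the empty vector sample alone, at 113.5 against 89.4 in the FBP1 sample and 99.5 in the wt sample.

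Markers of fibroblasts and of blood cells had medians of 0.12 and 0.05 against the empty vector sample, and of 0.43 and 0.08 against the wt sample. Values of single genes here are against the empty vector sample unless stated. Of the 12 fibroblast markers 6 were detected. Signals summed over all 12, undetected ones included, were 1357, 1365 and 1376 on the FBP1, empty vector and wt arrays. PDGFRB (0.60) and DPT (0.56) stood highest and ACTA2 (0.00) and THY1 (-0.34) lowest. Of the 13 blood cell markers on the platform 6 were detected, and signals summed over all 13 were 3372, 3257 and 3899 on the same arrays. CD14 (1.04) and HBA2 (0.60) stood highest and LCP1 (-0.41) and CORO1A (-0.42) lowest. THY1 and LCP1 were highest in the wt sample, at 160.0 and 652.0, and stood at -1.78 and -1.80 against it. Among the luminal markers, CDH1 (1.88) and FOXA1 (1.87) stood highest and TFF3 (-0.47) and KRT8 (-0.51) lowest. Among the mesenchymal-like line markers, ANXA1 (0.22) and PLAU (0.04) stood highest and ZEB1 (-0.45) and AXL (-0.48) lowest.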
